A study of Mus musculus with 28 samples.

Results

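The genes described are the collagens, laminins, fibulins, fibronectin, SPARC family members, matrix metalloproteinases (MMPs), TIMP inhibitors and ADAMTS proteases of the mouse. Within these families, which were chosen with earlier results of these data known, the genes were taken by symbol, and 111 of the 37974 genes of the single-cell table carried such a symbol. Col4a3bp is among them by name only, since it encodes a ceramide transfer protein and no collagen. The genes were read in EZ-SEZ/SVZ tissue, the striatal side of the lateral ventricle, where new neurons are made in the adult forebrain, and in single cells from the same region, all from C57BL/6 mice. Tissue was taken at 18 months (3 samples) and at 3 weeks (3 samples). The 22 cells were 6 Prom1+ cells (3 at 1 month and 3 at 24 months), 7 Gfap+ cells (2 at 1 month and 5 at 24 months) and 9 Dlx2+/Dcx+ cells (5 at 1 month and 4 at 24 months). Cells were sorted by size and complexity after papain digestion, picked by hand, amplified with Smart-seq2, a full-length cDNA method, and kept by marker qPCR. Prom1 encodes CD133 and marks ependymal stem cells, Gfap marks astrocytes and a class of stem cells, and Dlx2 and Dcx mark progenitors and young neurons. The paper assigned the Prom1+ cells sequenced here to active neural stem cells that express Egfr and Mki67. No animal is named for any sample or cell. The p-values therefore measure only the spread between these tissue samples, and each cell type and age counts as 1 sample without a test.

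The extracellular matrix of the brain differs from that of other tissues. Fibril-forming collagens are found mainly in meninges and vessels, whereas basement membranes, sheets of type IV collagen and laminin trimers joined by linker proteins, surround vessels and reach into the ventricle wall as branched extensions that contact stem cells. SPARC and its relatives are secreted proteins that bind collagen and modulate adhesion, and the testicans (Spock genes) are proteoglycans of the same family made in neural tissue. MMPs and ADAMTS enzymes cut collagens, laminins and proteoglycans, and TIMPs inhibit them.

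Expression was deposited as FPKM, fragments scaled to transcript length and to the mapped fragments of a library, so levels can be compared between genes per length. The estimated depth of the tissue samples was 18590000 to 22230000 fragments, and 11733 to 12127 genes reached 1 FPKM in a sample. Correlations of log2 values between tissue samples were 0.889 to 0.9 within 18 months, 0.909 to 0.916 within 3 weeks and 0.861 to 0.894 between ages. In cells 4398 to 6626 genes reached 1 FPKM. The depth of the cells was not used here. Actb, a gene used by every cell, was listed at 0 in all 6 Prom1+ cells, so a value of 0 in a cell is given as listed and not as absence. In the 6 tissue samples, summed FPKM over 8 neuroblast markers was 315 to 449 and over 4 ependymal markers 72.8 to 112. These sums do not show which cells held the transcripts.

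In tissue, 93 of the 111 matrix genes had values, and 18 were not analysed there (Mmp2, Mmp3, Mmp8, Mmp10, Mmp13, Mmp19, Mmp20, Mmp25, Mmp1a, Fbln5, Lama1, Col4a3bp, Adamts5, Adamts6, Adamts12, Adamts15, Adamts18 and Adamts19). Levels spanned a wide range. Mean FPKM over the 6 samples was at least 10 for 11 genes, from 1 to 10 for 34, from 0.1 to 1 for 36 and below 0.1 for 12, of which Mmp7 and Mmp1b were listed at 0 throughout. The SPARC family led this order, with Sparcl1 at a mean of 535 FPKM, Sparc at 126 and Spock3 at 74.3. Below them stood Timp3 (mean 40.0 FPKM), Timp2 (34.4), Spock2 (33.6), Mmp17 (23.2), Lamc1 (14.9), Col6a1 (14.3), Spock1 (13.3) and Mmp14 (11.2). The most abundant matrix transcripts of the region thus encoded secreted SPARC family proteins and TIMPs, while the type I and type III collagens of connective tissue did not exceed 4.44 FPKM in any sample. Sparc overlapped with Spock3 in its sample values, as did each pair of neighbours from Timp3 to Mmp14, and these could not be ordered, while Spock3 lay above Timp3 in all samples. The mean of Timp2 rested on 1 sample (18 months replicate 3 at 115 FPKM) and was 18.4 FPKM without it.

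The question put to the tissue was which matrix genes differ between old and young walls. Of the 93 genes, 47 passed the filter of at least 1 FPKM in at least 3 samples and were tested with limma on log2(FPKM + 1), a scale that understates the change of low genes. The limits read were an unadjusted p below 0.05 with a change above 1 on the log2 scale, an adjusted p below 0.05, and whether the samples of the ages overlapped. By the p and fold limits 3 matrix genes fell at 18 months (Mmp15, Fbln2 and Lamc1) and 0 rose, which is 6.38% of those tested beside 3.9% of all 12287 genes tested. For single directions the share of all genes was 2.07% lower and 1.83% higher. At an unadjusted p below 0.05 with no fold limit, limma gave 13 matrix genes lower (27.7%, against 8.93% of all genes) and 9 higher (19.1%, against 15.4%). By adjusted p alone 5 matrix genes (10.6%) passed, namely Mmp15, Fbln2 and Col1a2 lower and Col6a5 and Adamts1 higher, against 4.92% of all genes, with 2.42% lower and 2.51% higher. The ages did not overlap for 14 matrix genes lower at 18 months (29.8%, against 12.2% of all genes) and for 12 higher (25.5%, against 20.9%), so for 26 in all (55.3%, against 33.1%). Of the 47 genes, 4 passed the filter only through the age at which they were high, at 1 FPKM or more in all samples of that age and in none of the other (Adamts1, Lamb3 and Mmp28 at 18 months and Col1a1 at 3 weeks), so that they had to differ. Over all genes this held for 271. Without such genes, a choice made after seeing the data, 4 of 43 matrix genes passed by adjusted p (9.3%, against 3.89% of all genes), 12 were lower and 6 higher at an unadjusted p below 0.05 in limma (27.9% and 14.0%, against 8.32% and 14.4%), and 13 were lower and 9 higher without overlap (30.2% and 20.9%, against 11.7% and 19.9%). The median log2 fold change of the 47 genes was 0.06 beside 0.09 for all genes tested, and 22 of them lay below 0 and 25 above. In whole tissue, fewer cells of a type and less RNA per cell cannot be told apart. Several marker lists of other cells differed between the ages. Markers of oligodendrocytes, the myelin-forming cells, had summed FPKM of 4057 to 4718 at 18 months and 20572 to 22727 at 3 weeks, with 4 of 8 tested markers lower by the p and fold limits, 7 lower without overlap and Olig1 listed at 0 in all samples. Markers of Prom1+ stem cells summed to 113 to 295 FPKM at 18 months and 309 to 371 FPKM at 3 weeks, with 6 of 9 lower without overlap. Neuroblast markers summed to 315 to 319 FPKM and 392 to 449 FPKM, with 4 of 8 lower by adjusted p and 2 (Dlx6 and Gad1) higher without overlap. Striatal neuron markers went the other way, at 2571 to 3040 FPKM and 1450 to 2082 FPKM, with 5 of 7 higher without overlap. Ependymal markers summed to 102 to 112 FPKM and 72.8 to 97.2 FPKM, with 2 of 4 higher without overlap. Of 8 microglial markers 4 were higher and 2 lower without overlap, and their sums overlapped (118 to 135 FPKM and 113 to 143 FPKM). The part of these differences in the matrix values was not tested.

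**Figure D1:**
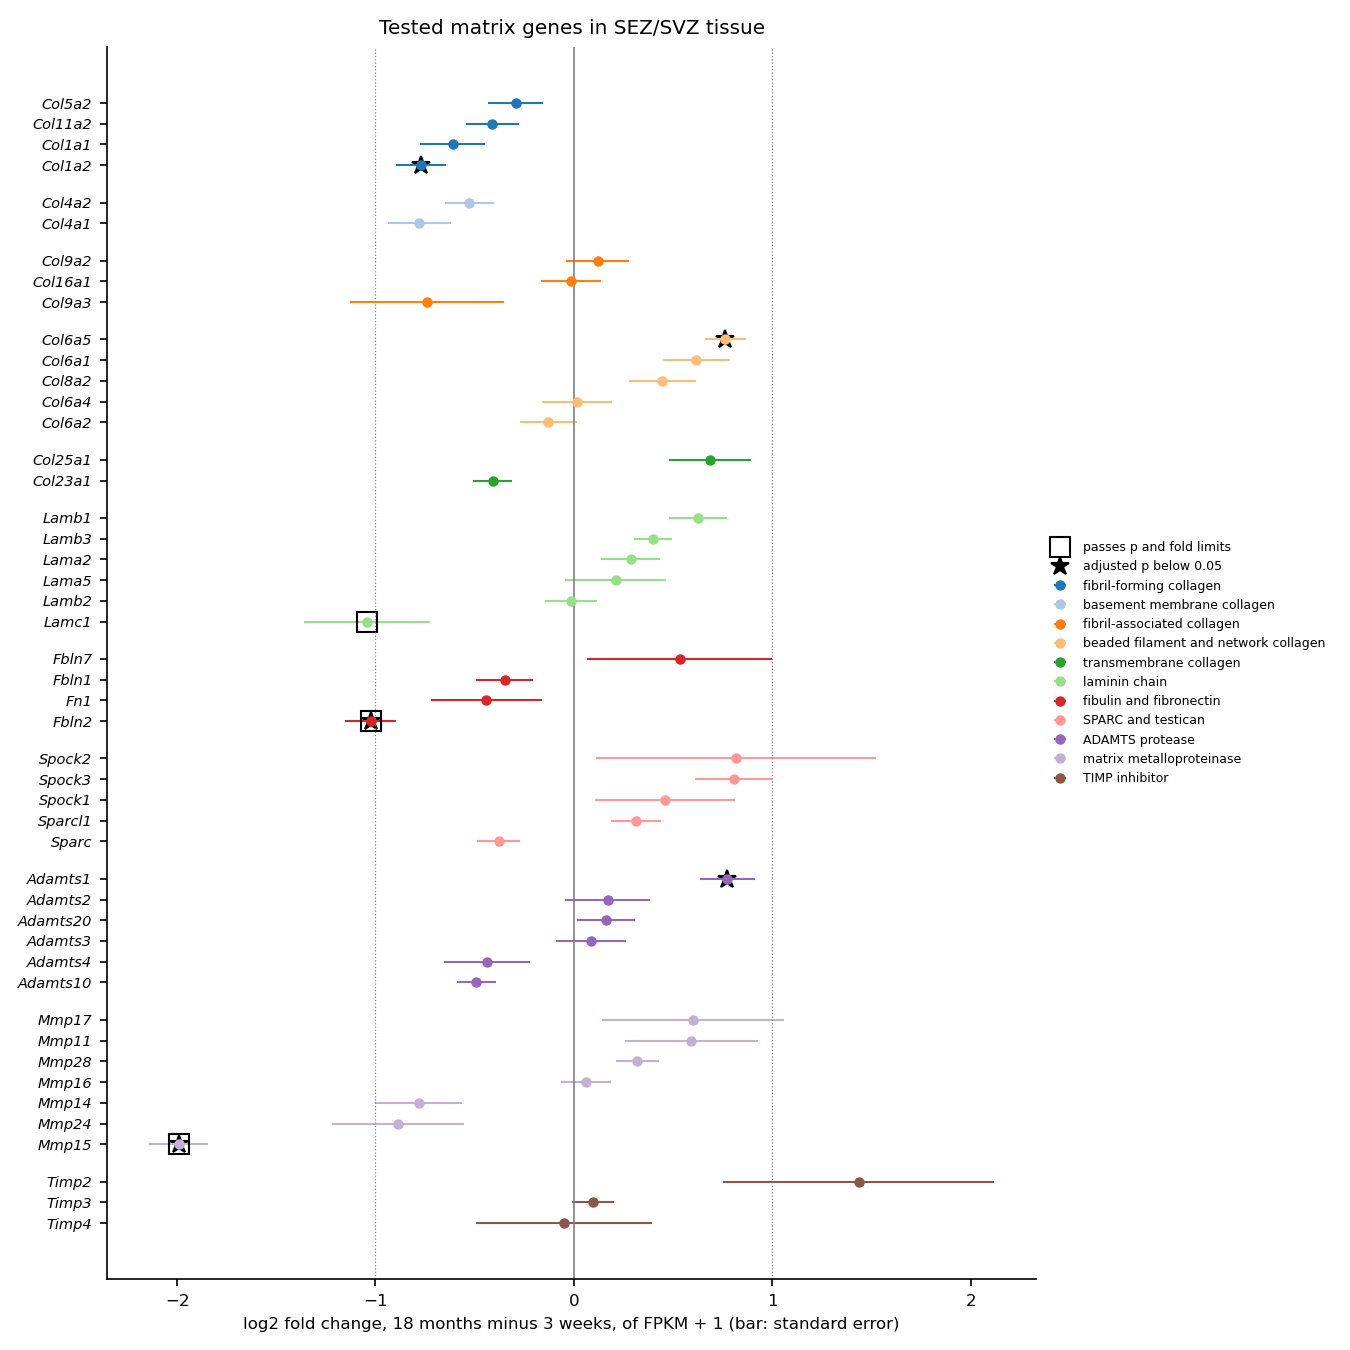
The log2 fold change of FPKM + 1 between 18 months and 3 weeks is plotted on the x axis for each of the 47 matrix genes tested, grouped by role, with the standard error as a bar. Squares mark the 3 genes past the p and fold limits (Mmp15, Lamc1 and Fbln2, all on the lower side) and stars the 5 genes with an adjusted p below 0.05; both tested type IV collagens and all 4 tested fibril-forming collagens lie below 0.

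Type IV collagen is the network-forming collagen of basement membranes, and its main trimer joins chains encoded by Col4a1 and Col4a2. Both chains were lower at 18 months without overlap. Col4a1 was at 3.48, 3.95 and 3.79 FPKM at 18 months and at 8.25, 7.61 and 5.74 FPKM at 3 weeks, a log2 change of -0.78 ± 0.16 (SE, n = 3 per age) with limma and an adjusted p of 0.0542. Col4a2 was at 4.01, 4.06 and 4.08 FPKM at 18 months and at 7.05, 6.28 and 5.56 FPKM at 3 weeks, a log2 change of -0.53 ± 0.12 (SE) with an adjusted p of 0.076 in the same fit. Neither reached the limits, although each old sample lay below every young one. The ratio of Col4a1 to Col4a2 within a sample was 0.869 to 0.972 at 18 months and 1.03 to 1.21 at 3 weeks, so the ratio did not overlap between the ages. Col4a3, Col4a4, Col4a5, Col4a6, Col15a1 and Col18a1 were below 1 FPKM in all samples and were not tested. Among markers of endothelial cells, which lie on these basement membranes, summed FPKM over 8 genes was 41.4 to 41.9 at 18 months and 53.0 to 67.2 at 3 weeks, 6 of 8 changes were below 0, 2 of 8 (Ly6c1 and Tek) were lower without overlap and had an unadjusted p below 0.05 in limma, 0 passed by the p and fold limits or by adjusted p, and 0 markers were at 0. Markers of mural cells, which also belong to the vessel wall, were summed over 7 genes. They were at 57.6 to 75.0 FPKM at 18 months and 62.7 to 64.8 FPKM at 3 weeks. Of 6 tested, 4 changes were above 0 and 2 below. Without overlap 1 was lower and 1 higher (against 12.2% and 20.9% of all genes), and 0 passed by the p and fold limits or by adjusted p. The part of either list in the collagen values was not tested.

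Col4a1 and Col4a2 are neighbours on mouse chromosome 8 (GRCm38) and are read in opposite directions from a common start region. Col4a1 (ENSMUSG00000031502) lies on the minus strand at chr8:11198423-11312826 and Col4a2 (ENSMUSG00000031503) on the plus strand at chr8:11312805-11449287, so that their annotated starts are 21 bases apart and the gene bodies overlap there. The RefSeq promoter windows (GRCm38.p6, 250 bases before to 50 bases after a start) are shown because both chains that were lower together start here. They cover chr8:11312777-11313076 for Col4a1 and chr8:11312555-11312854 for Col4a2, and share 78 bases, read on opposite strands. Capitals mark CCAAT (the CCAAT box) and GGGCGG (the GC box), each searched on both strands, and TATAAA was searched as well.
Col4a1: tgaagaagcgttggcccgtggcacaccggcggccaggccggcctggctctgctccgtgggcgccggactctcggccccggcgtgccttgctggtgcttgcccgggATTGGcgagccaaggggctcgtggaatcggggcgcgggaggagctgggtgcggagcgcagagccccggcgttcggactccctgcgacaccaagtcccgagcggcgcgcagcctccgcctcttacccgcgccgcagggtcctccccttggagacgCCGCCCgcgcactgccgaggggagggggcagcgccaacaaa
Col4a2: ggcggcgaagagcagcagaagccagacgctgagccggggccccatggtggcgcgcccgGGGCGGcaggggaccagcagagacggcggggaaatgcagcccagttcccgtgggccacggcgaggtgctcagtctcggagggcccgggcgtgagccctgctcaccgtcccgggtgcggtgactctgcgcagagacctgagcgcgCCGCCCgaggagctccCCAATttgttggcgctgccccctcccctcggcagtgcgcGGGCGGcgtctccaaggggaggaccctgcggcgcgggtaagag
The Col4a1 window held 1 CCAAT and 1 GGGCGG, the Col4a2 window held 1 CCAAT and 3 GGGCGG, and neither held TATAAA. The GGGCGG of Col4a1 and the last of the 3 of Col4a2 are the same bases (chr8:11312812-11312817), within the stretch that both windows hold. Of all 32851 RefSeq windows, 37.4% held CCAAT, 35.7% GGGCGG and 13.6% TATAAA. GC content was 74.0% and 73.7% beside a median of 52.7% for all windows. A match is a description of the letters and not a site. The other collagen IV pairs are arranged head to head as well, with annotated starts 72 bases apart for Col4a3 and Col4a4 on chromosome 1 and 1309 bases apart for Col4a5 and Col4a6 on chromosome X.

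Laminins are trimers of an alpha, a beta and a gamma chain. Lamc1 (ENSMUSG00000026478, chr1:153218922-153332786, minus strand) encodes the gamma chain found in most laminins and had the highest mean of the laminin chains over the 6 samples. In replicate 2 at 18 months it lay below Lamb1 and Lamb2 (7.02 and 7.12 FPKM). It was at 15.6, 6.25 and 7.80 FPKM at 18 months and at 20.3, 19.1 and 20.6 FPKM at 3 weeks, a log2 change of -1.04 ± 0.32 (SE, n = 3 per age) in limma with an unadjusted p of 0.0173 and an adjusted p of 0.126. All old samples were lower, but replicate 1 at 18 months lay nearer to the young samples than to the other old ones. The log2 change was -1.39 without that sample, and Lamc1 lost its call without replicate 2 (-0.80) or replicate 3 (-0.94) at 18 months. The beta chain Lamb1 went the other way, at 5.49, 7.02 and 6.38 FPKM at 18 months and 4.25, 3.69 and 3.25 FPKM at 3 weeks, a log2 change of 0.62 ± 0.15 (SE) with an adjusted p of 0.0741 in limma. Lamb2, the beta chain of many vascular and synaptic laminins, was at a mean of 6.78 FPKM (SD 0.448) at 18 months and 6.86 FPKM (SD 0.837) at 3 weeks, and its ages overlapped. The ratio of Lamb2 to Lamb1 was thus 1.01 to 1.14 in old samples and 1.76 to 1.93 in young ones, and the ratio of Lamc1 to Lamb1 was 0.89 to 2.84 and 4.77 to 6.35. These ratios did not overlap between the ages. Lamb3, a chain of epithelial laminins, was higher without overlap at 1.36, 1.25 and 1.17 FPKM against 0.674, 0.793 and 0.680 FPKM (adjusted p of 0.0792 with limma), and it passed the filter only through the old samples. The alpha chains Lama2 and Lama5 had means of 2.27 and 1.79 FPKM at 18 months and 1.69 and 1.47 FPKM at 3 weeks. Lama5 overlapped between the ages, Lama2 did not by a narrow margin (2.01 FPKM as the lowest old and 1.98 FPKM as the highest young value), and Lama4, the alpha chain of vessel walls, was at 0.429 to 0.599 FPKM and 0.449 to 1.72 FPKM and did not pass the filter. Altogether 6 laminin chains of 10 with values were tested. By the p and fold limits 1 fell and 0 rose (against 2.07% and 1.83% of all genes). By adjusted p 0 passed (against 4.92%). In limma Lamc1 was lower and Lamb1 and Lamb3 higher at an unadjusted p below 0.05 (against 8.93% and 15.4%).

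All 4 tested fibril-forming collagens had log2 changes below 0, with a median of -0.51, and 3 of them were lower without overlap (against 12.2% of all genes). Without Col1a1, which had to differ to pass the filter, 2 of 3 were lower without overlap (against 11.7%), with a median of -0.41. Col1a2, the second chain of type I collagen, was at 1.89, 1.87 and 1.82 FPKM at 18 months and at 3.92, 4.44 and 3.37 FPKM at 3 weeks. Its log2 change was -0.77 ± 0.13 (SE, n = 3 per age) with an adjusted p of 0.0325 in limma, below the fold limit. Its partner chain Col1a1 was at 0.826, 0.766 and 0.718 FPKM against 1.66, 1.24 and 2.31 FPKM, a log2 change of -0.61 ± 0.16 (SE) with an adjusted p of 0.0976, and it passed the filter only through the young samples. Both chains of type I collagen were thus lower in every old sample than in any young one. Col11a2, a minor fibril collagen known from cartilage, was at 3.43 to 3.97 FPKM and 4.45 to 5.72 FPKM (adjusted p of 0.146 with limma). Col3a1, the type III collagen of vessel walls and soft tissue, was below the filter but was at 0.199, 0.142 and 0.178 FPKM at 18 months and at 0.850, 0.844 and 1.14 FPKM at 3 weeks. With no filter and a pseudocount of 0.1, settings chosen after seeing the data, its log2 change was -1.93 with an adjusted p of 0.0373. Col2a1, the main collagen of cartilage, stood on the other side, at 1.35, 1.05 and 0.897 FPKM against 0.182, 0.209 and 0.296 FPKM, and it did not pass the filter (log2 change of 1.87 and adjusted p of 0.0521 with no filter and a pseudocount of 0.1). The fibrillar collagens below the filter therefore did not all lie on one side. Markers of vascular and meningeal fibroblasts, summed over 7 genes, were at 25.8 to 34.0 FPKM at 18 months and 33.2 to 45.6 FPKM at 3 weeks. Of 4 tested, Igf2 was lower by the p and fold limits and Slc6a13 was higher without overlap (log2 change of 0.54, unadjusted p of 0.00737 in limma), 3 changes were below 0 and 0 markers were at 0, and their part in the collagen values was not tested.

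The collagens of beaded filaments and networks lay mostly on the higher side at 18 months, with a median log2 change of 0.45 over 5 tested and 3 higher without overlap (against 20.9% of all genes). Col6a5, a long chain of type VI collagen that can take the place of Col6a3 in the trimer, was at 3.30, 3.60 and 3.57 FPKM at 18 months and at 1.71, 1.62 and 1.59 FPKM at 3 weeks. Its log2 change was 0.76 ± 0.10 (SE, n = 3 per age) with an adjusted p of 0.0197 in limma. Col6a1, a chain of every type VI trimer, was at 17.6, 14.7 and 20.4 FPKM against 9.60, 10.9 and 12.7 FPKM, with a log2 change of 0.62 and an adjusted p of 0.1 in limma. Both were higher in every old sample. Col6a2, the other constant chain, overlapped at means of 5.01 FPKM (SD 0.668) and 5.57 FPKM (SD 0.655), and the ratio of Col6a1 to Col6a2 was 3.08 to 4.14 in old and 1.94 to 2.03 in young samples. Col6a3, the usual partner of both, was below the filter at 0.244 to 0.363 FPKM and 0.0787 to 0.0986 FPKM. Among fibril-associated collagens, Col9a2, Col9a3 and Col16a1 overlapped between the ages, and among transmembrane collagens Col23a1 was lower (log2 change -0.41) and Col25a1, a neuronal collagen found in amyloid plaques, higher (0.69), with adjusted p-values of 0.0765 and 0.123 in limma.

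Fibulins are elastic fibre and basement membrane proteins. Fbln2 (ENSMUSG00000064080, chr6:91212455-91272540, plus strand) fell at 18 months, to 0.896, 1.17 and 1.18 FPKM from 3.73, 2.93 and 3.06 FPKM at 3 weeks. The log2 change was -1.02 ± 0.13 (SE, n = 3 per age) with an adjusted p of 0.0168 in limma, and the young mean was 3.00 times the old one. No sample overlapped, but the change was close to the fold limit and lay inside it without replicate 1 at 18 months (-0.96) or replicate 1 at 3 weeks (-0.94). Fbln1 was at 6.47 to 8.43 FPKM and 8.86 to 10.9 FPKM, without overlap and with an adjusted p of 0.216. Fn1, the gene of fibronectin, a cell-binding matrix glycoprotein, overlapped at means of 2.99 FPKM (SD 1.04) and 4.45 FPKM (SD 1.65).

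**Figure D2:**
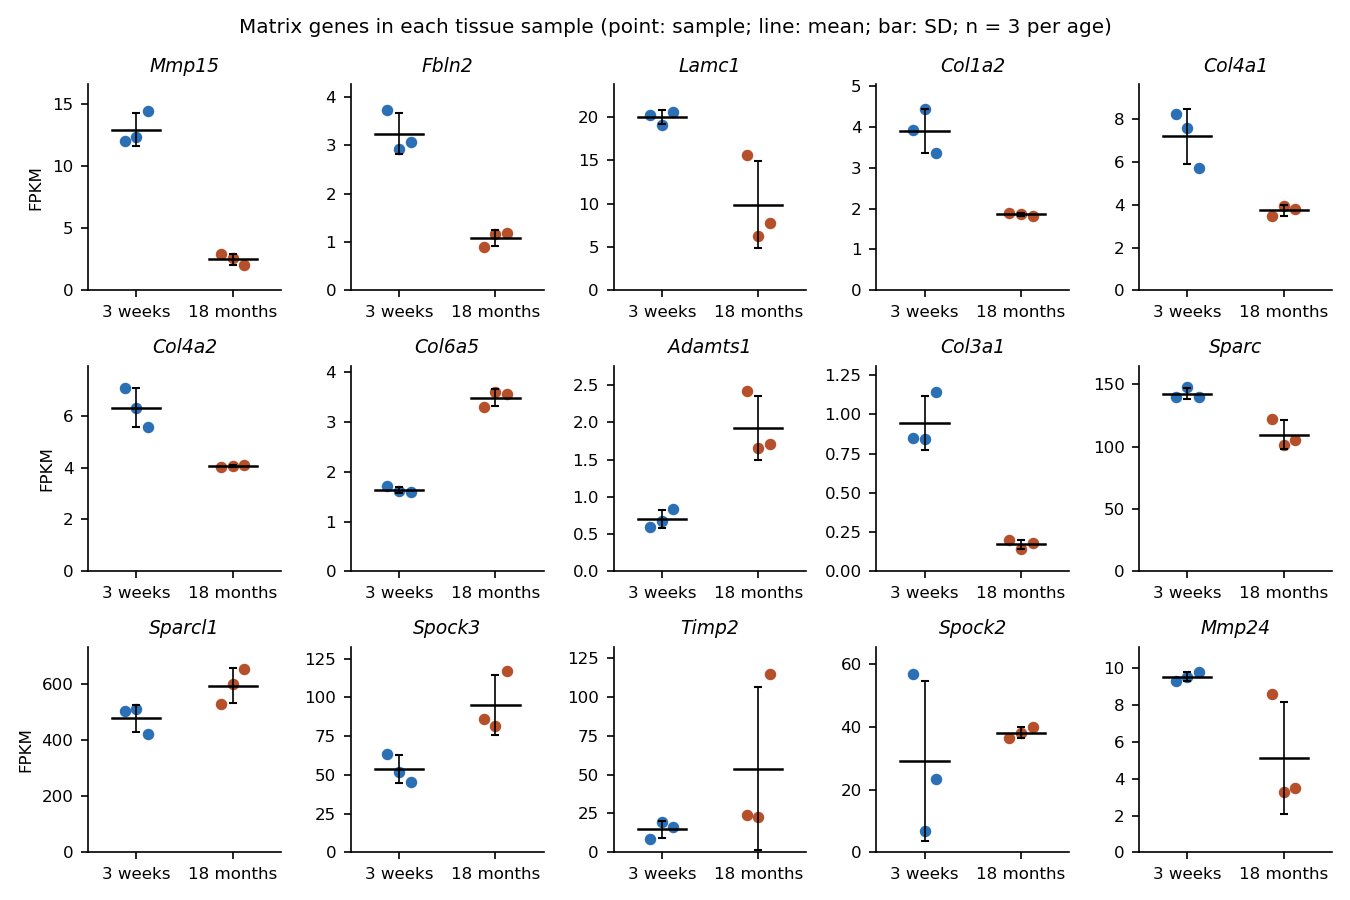
FPKM is plotted on a linear y axis from 0 for 15 matrix genes in each tissue sample, with the 3-week samples on the left and the 18-month samples on the right of each panel; the line is the mean and the bar the SD of 3 samples. Mmp15 is at 12.02 to 14.5 FPKM in young and 2.04 to 2.92 FPKM in old samples, whereas in Timp2, Lamc1 and Mmp24 a single sample stands apart from the others of its age.

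Among the SPARC family, 1 of 5 genes was below 0 and 4 were above. In limma 0 passed the p and fold limits or the adjusted p (against 3.9% and 4.92% of all genes). Sparc was lower and Spock3 higher at an unadjusted p below 0.05 in the same fit (against 8.93% and 15.4%). Sparc (ENSMUSG00000018593) was at 122, 101 and 106 FPKM at 18 months and at 140.0, 148 and 140.1 FPKM at 3 weeks, lower in every old sample, with a log2 change of -0.38 ± 0.11 (SE, n = 3 per age) and an adjusted p of 0.108 in limma. Sparcl1, also known as Hevin, a synapse-organising relative made by astrocytes, was at 529, 598 and 651 FPKM at 18 months and at 502, 509 and 421 FPKM at 3 weeks, so the pair lay on opposite sides. Spock3 was at 85.7, 81.7 and 117 FPKM against 63.4, 52.0 and 45.5 FPKM, higher in every old sample with a log2 change of 0.80 ± 0.19 (SE) and an adjusted p of 0.0784. Spock1 and Spock2 had young samples that spread widely. Spock1 was at 14.5, 15.7 and 14.8 FPKM at 18 months but at 6.77, 9.11 and 19.1 FPKM at 3 weeks. Spock2 was at 36.3, 38.0 and 40.0 FPKM at 18 months but at 56.9, 6.74 and 23.4 FPKM at 3 weeks. The log2 change of Spock2 was 0.82 with all samples, 0.06 without replicate 2 at 3 weeks and 1.51 without replicate 1 at 3 weeks. No direction is given for either gene.

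Mmp15 (ENSMUSG00000031790, chr8:95352268-95375080, plus strand), a membrane-type MMP that can activate other MMPs at the cell surface, had the largest change of the 47 genes. It fell to 2.92, 2.60 and 2.04 FPKM at 18 months from 12.02, 12.4 and 14.5 FPKM at 3 weeks, a log2 change of -1.99 ± 0.15 (SE, n = 3 per age) with an adjusted p of 0.0036 in limma. The young mean was 5.14 times the old one, every old sample was lower, and leaving out any sample gave log2 changes of -2.07 to -1.89. Mmp14, the best known membrane-type MMP, was at 10.5, 7.10 and 6.51 FPKM against 11.9, 14.3 and 17.0 FPKM, without overlap, with a log2 change of -0.78 ± 0.22 (SE) and an adjusted p of 0.106 in limma. The levels of both were nearly the same at 3 weeks, where the ratio of Mmp14 to Mmp15 was 0.989 to 1.17, while at 18 months it was 2.73 to 3.60. Mmp24, a membrane-type MMP of neurons, was at 8.60, 3.29 and 3.47 FPKM against 9.28, 9.49 and 9.76 FPKM (adjusted p of 0.179). As for Lamc1, replicate 1 at 18 months lay near the young samples, and without it the log2 change was -1.26 in place of -0.89. Mmp17, a membrane-type MMP anchored by a lipid, was at 25.1 to 28.4 FPKM in old samples and at 25.6, 7.68 and 25.6 FPKM in young ones. Its log2 change of 0.60 rested on replicate 2 at 3 weeks and was 0.06 without it. Mmp11, Mmp16 and Mmp28 were tested too, with log2 changes of 0.59, 0.06 and 0.32. The ages overlapped for Mmp11, whose change was 0.29 without replicate 1 at 18 months (4.44 FPKM). The secreted gelatinase Mmp9 was below the filter at 0.0918 to 0.183 FPKM.

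Of the inhibitors, Timp3, which is bound to the matrix, was at 41.2, 38.3 and 44.4 FPKM at 18 months and 39.3, 40.5 and 36.1 FPKM at 3 weeks. These values overlapped, and the log2 change was 0.09 ± 0.11 (SE, n = 3 per age). Timp2, which also takes part in MMP activation at the cell surface, was at 24.2, 22.9 and 115 FPKM at 18 months and 8.83, 19.7 and 16.2 FPKM at 3 weeks, with an adjusted p of 0.266 in limma. Every old sample was higher, but the log2 change of 1.44 became 0.69 without replicate 3 at 18 months. Timp4 was at 2.94 to 8.29 FPKM and 3.14 to 8.20 FPKM, and Timp1 was below the filter at 0.408 to 0.723 FPKM and 0.219 to 0.473 FPKM. No TIMP passed either limit or had an unadjusted p below 0.05 in limma.

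Among the 6 ADAMTS genes tested, 2 were below 0 and 4 above. Adamts1, an aggrecan- and versican-cutting protease, was at 2.42, 1.66 and 1.71 FPKM at 18 months and at 0.603, 0.676 and 0.832 FPKM at 3 weeks, with a log2 change of 0.77 ± 0.14 (SE, n = 3 per age) and an adjusted p of 0.0427 in limma. It was higher in every old sample, below the fold limit. It passed the filter only through the old samples, and with a filter on the mean its adjusted p was 0.0565. Over 12 alternative settings the adjusted p was 0.0367 to 0.21, and in 2 of them it was below 0.05. Adamts10, a protease of microfibrils, was at 1.21 to 1.32 FPKM against 2.03 to 2.30 FPKM, lower in every old sample with an adjusted p of 0.0549. Adamts4, an aggrecanase that oligodendrocytes express, overlapped at 2.97 to 4.83 FPKM and 4.29 to 6.64 FPKM. Of the 46 matrix genes with values that did not pass the filter, 7 were lower without overlap (Adamts7, Col3a1, Col4a3, Col4a4, Col4a5, Col9a1 and Col20a1) and 10 higher, among them Col2a1, Col6a3, Col12a1, Col14a1 and Mmp12. Of the 46, 44 were above 0 in at least 1 sample. Among all 12860 genes above 0 that did not pass the filter, 4.55% were lower without overlap and 10.2% higher.

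Other genes of the matrix pathway were taken from lists of collagen processing, basement membrane linkers, elastic fibres, proteoglycans, receptors and further proteases. Of 111 listed, 56 were tested, 3 fell and 4 rose by the p and fold limits, and by adjusted p 8 were lower and 4 higher, beside 3.9% of all genes by the p and fold limits and 2.42% lower and 2.51% higher by adjusted p. Their median log2 change was -0.05 beside 0.09 for all genes. Serpinh1, the chaperone that collagen chains need for folding, fell to a mean of 14.5 FPKM (SD 1.94) from 31.8 (SD 2.52), a log2 change of -1.08 with an adjusted p of 0.0168 in limma. Mfap2, a microfibril protein, fell by 1.42 on the log2 scale (adjusted p of 0.0139), and Tnc, the tenascin of the germinal zone, fell by 1.05 (adjusted p of 0.011). On the higher side were Efemp1, a fibulin-like protein, with a log2 change of 2.17 (adjusted p of 0.00125), and Hapln2, a link protein of nodes of Ranvier, with 1.42 (adjusted p of 0.0112). Pcolce2, an enhancer of procollagen cleavage, rose by 1.17 (adjusted p of 0.00686) and Adamtsl4 by 1.14 (adjusted p of 0.118). Of the genes on these lists, 4 passed the filter through 1 age only, Pcolce2 and Adamtsl1 through the old samples and Hspg2 and Mfap4 through the young ones. Without them 3 of 52 fell and 3 rose by the p and fold limits (11.5%, against 3.23% of all genes left in the same way), and by adjusted p 7 were lower and 2 higher (13.5% and 3.85%, against 1.93% and 1.96%). Among 10 receptors tested with limma, 0 passed either limit and 3, the integrin genes Itga3, Itgb1 and Itgb5, had an unadjusted p below 0.05. Of these, 1 was lower and 2 were higher, beside 8.93% and 15.4% of all genes.

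In single cells the majority of matrix genes did not exceed 1 FPKM. Of the 111 genes, 53 were listed at 0 in all 22 cells (47.7%, against 53.5% of all 37974 genes listed) and 73 were above 1 FPKM in no cell (65.8%, against 59.2%). Of the other 38, 11 were above 1 FPKM in a single cell, 7 in 2 cells and 20, Col4a3bp among them, in at least 3. A cell had 2 to 12 matrix genes at 1 FPKM or more, whereas a tissue sample had 43 to 47. Over all genes a cell had 4398 to 6626 at 1 FPKM or more and a tissue sample 11733 to 12127. The collagens of beaded filaments and networks reached at most 0.326 FPKM in any cell and all 4 transmembrane collagens were listed at 0. Col6a1, Col6a5 and Lamb1, which stood above 3 FPKM in old tissue, were listed at 0 in all 22 cells. Markers of endothelial cells were at or near 0 in the cells, with sums of at most 4.47 FPKM over 10 genes.

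**Figure D3:**
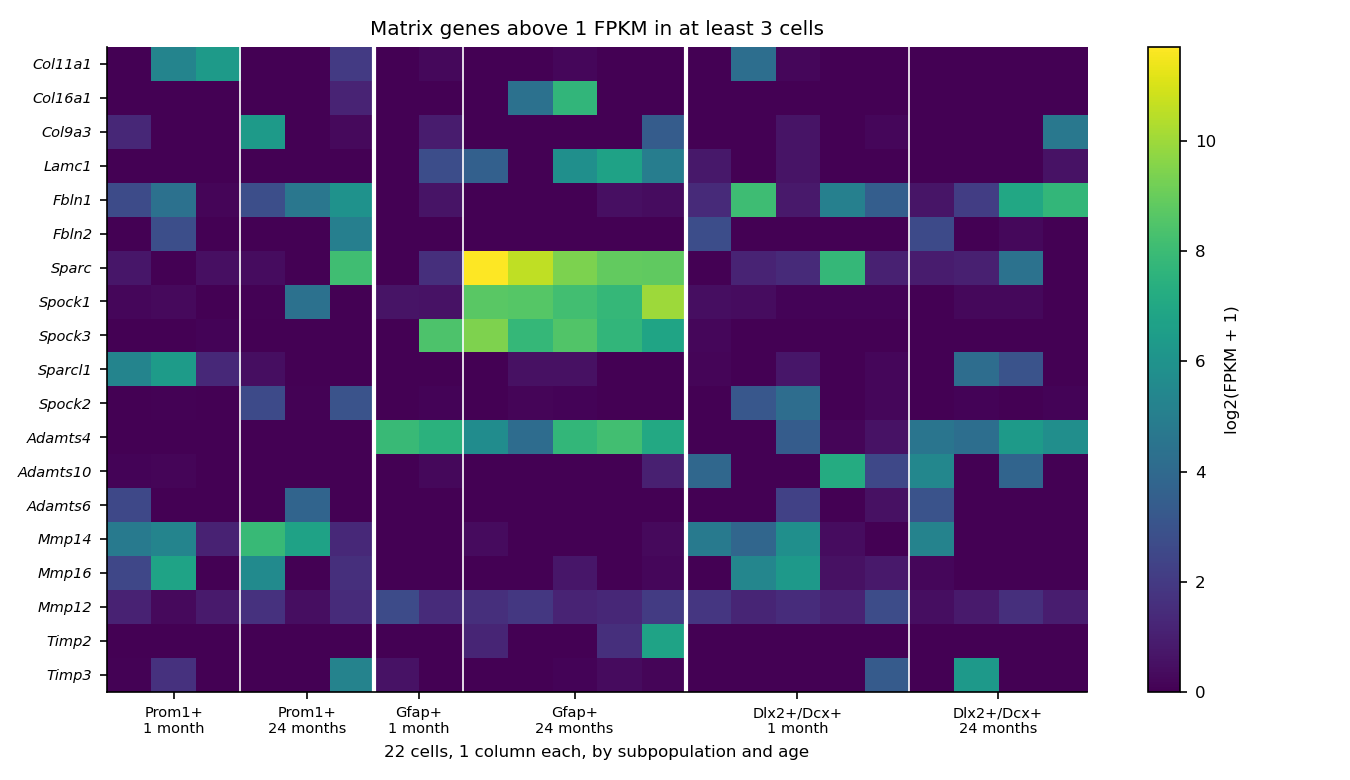
The colour gives log2(FPKM + 1) of the matrix genes above 1 FPKM in at least 3 cells, in rows by role and without Col4a3bp, for 22 cells in columns by subpopulation and age. Sparc, Spock1 and Spock3 are bright in the 5 Gfap+ cells at 24 months, Adamts4 in all 7 Gfap+ cells, and Fbln1 and Mmp14 in Prom1+ and Dlx2+/Dcx+ cells. Spock3 is also at 348 FPKM in a 1-month Gfap+ cell. Sparc is also at 219.5 FPKM in a 1-month Dlx2+/Dcx+ cell and 274 FPKM in a 24-month Prom1+ cell.

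The subpopulations differed in which matrix genes the majority of their cells held above 1 FPKM. In Prom1+ cells these were 3 of the 20 genes (15%, against 43.7% of all 11332 genes above 1 FPKM in at least 3 cells), namely Fbln1, Mmp14 and Mmp16. In Gfap+ cells there were 6 (30% against 41.3%), namely Adamts4, Lamc1, Mmp12, Sparc, Spock1 and Spock3. In Dlx2+/Dcx+ cells there were 5 (25% against 42.1%), namely Adamts4, Adamts10, Fbln1, Mmp12 and Sparc. The share of matrix genes was below that of all genes in each subpopulation, and the difference was not tested. Mmp12, the macrophage elastase, was at 0.239 to 5.58 FPKM in every one of the 22 cells. In tissue it was below the filter, at 0.129 to 0.280 FPKM at 18 months and 0.0135 to 0.0495 FPKM at 3 weeks. The source of the low values in every cell was not tested, and they are given as listed.

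The label of the Gfap+ cells was checked first. Gfap was at 48.7 to 194 FPKM in all 7 and at no more than 0.332 FPKM in other cells, but 10 oligodendrocyte markers summed to 41689 to 99263 FPKM in them and to at most 354 FPKM in any other cell. Mag, a myelin glycoprotein, was at 1755 and 4960 FPKM in the 1-month Gfap+ cells and 924 to 2573 FPKM in the 24-month ones. The matrix genes of these cells are thus those of cells that carry both Gfap and myelin transcripts, and they are called by their label only. In Prom1+ cells Mki67, a gene of dividing cells, was at 45.1 to 179 FPKM at 1 month and 52.4 to 135 FPKM at 24 months. Of 7 ependymal markers with values, 7 were listed at 0 in all Prom1+ cells at 1 month and 6 at 24 months.

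Sparc and Spock1 separated the Gfap+ cells by age. Sparc was at 0 and 1.94 FPKM in the 1-month cells and at 3356, 1521, 667, 469.9 and 457 FPKM in the 24-month cells, a difference of 9.10 in mean log2(FPKM + 1). Spock1 was at 0.511 and 0.506 FPKM at 1 month and at 415, 394, 289, 219.9 and 1021 FPKM at 24 months, a difference of 8.07. The ages did not overlap for either gene, and leaving out any cell gave differences of 8.32 to 9.88 and 7.73 to 8.28. Among all 11332 genes, 2.56% were higher at 24 months in Gfap+ cells without overlap and by more than 1, and 2.79% lower. Spock3 was listed at 0 in 1-month replicate 1, at 348 FPKM in 1-month replicate 2 and at 114 to 707 FPKM at 24 months, so its ages overlapped. Outside the Gfap+ cells Spock3 did not exceed 0.146 FPKM in any of the other 15 cells, and Spock1 exceeded 1 FPKM only in 1 Prom1+ cell at 24 months (19.6 FPKM). With 2 cells at 1 month these are descriptions of cells, and 1 sample per age allows no test. Of these 2 cells, replicate 1 had 4398 genes at 1 FPKM or more, the fewest of all 22 cells, and replicate 2 had 5491. The 24-month Gfap+ cells had 5069 to 6061. In tissue Sparc was lower at 18 months than at 3 weeks, at other ages and in all cell types together.

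The RefSeq promoter windows of Sparc (chr11:55420031-55420330, minus strand) and Spock1 (chr13:57908283-57908582, minus strand) are shown because both genes were high in the same 5 cells, with the same motifs in capitals.
Sparc: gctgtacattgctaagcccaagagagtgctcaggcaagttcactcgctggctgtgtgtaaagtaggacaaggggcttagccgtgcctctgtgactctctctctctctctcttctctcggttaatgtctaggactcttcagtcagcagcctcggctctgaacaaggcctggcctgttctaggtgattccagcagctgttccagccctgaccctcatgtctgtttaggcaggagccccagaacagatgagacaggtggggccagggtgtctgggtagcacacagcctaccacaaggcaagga
Spock1: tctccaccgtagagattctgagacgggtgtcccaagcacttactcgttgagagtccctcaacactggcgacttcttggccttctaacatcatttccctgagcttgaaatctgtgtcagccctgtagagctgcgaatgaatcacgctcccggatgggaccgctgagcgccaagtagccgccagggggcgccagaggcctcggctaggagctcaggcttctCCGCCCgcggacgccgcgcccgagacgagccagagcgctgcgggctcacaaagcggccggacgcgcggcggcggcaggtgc
The Sparc window held none of the letters searched, at a GC content of 55.3%, and the Spock1 window held 1 GGGCGG, at 64.0%. The RefSeq start behind the Sparc window lies inside the longer gene body of the GENCODE annotation (chr11:55394500-55423183).

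Adamts4 was above 1 FPKM in all 7 Gfap+ cells. It was at 243 and 178 FPKM at 1 month and at 51.6, 16.7, 218, 285 and 133 FPKM at 24 months, whereas all 6 Prom1+ cells had it listed at 0. In Dlx2+/Dcx+ cells it was at 0, 0, 9.46, 0.101 and 0.475 FPKM at 1 month and at 22.6, 17.6, 82.3 and 54.8 FPKM at 24 months, a difference of 4.42 in mean log2(FPKM + 1) without overlap between the ages. The 24-month Dlx2+/Dcx+ cells overlapped with the Gfap+ cells. In Dlx2+/Dcx+ cells 0.529% of all genes were higher and 1.05% lower at 24 months in this way, and Adamts4 was the only matrix gene among them. Lamc1 was the laminin chain of the Gfap+ cells, at 0 and 5.71 FPKM at 1 month and at 11.1, 0, 56.0, 107 and 29.8 FPKM at 24 months. Its ages overlapped, and it did not exceed 0.673 FPKM in any other cell. Its partner chains were sparse, since Lama2 reached 9.60 FPKM in 1 Gfap+ cell and Lamb2 was at 65.1 and 17.7 FPKM in 2 Prom1+ cells.

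**Figure D4:**
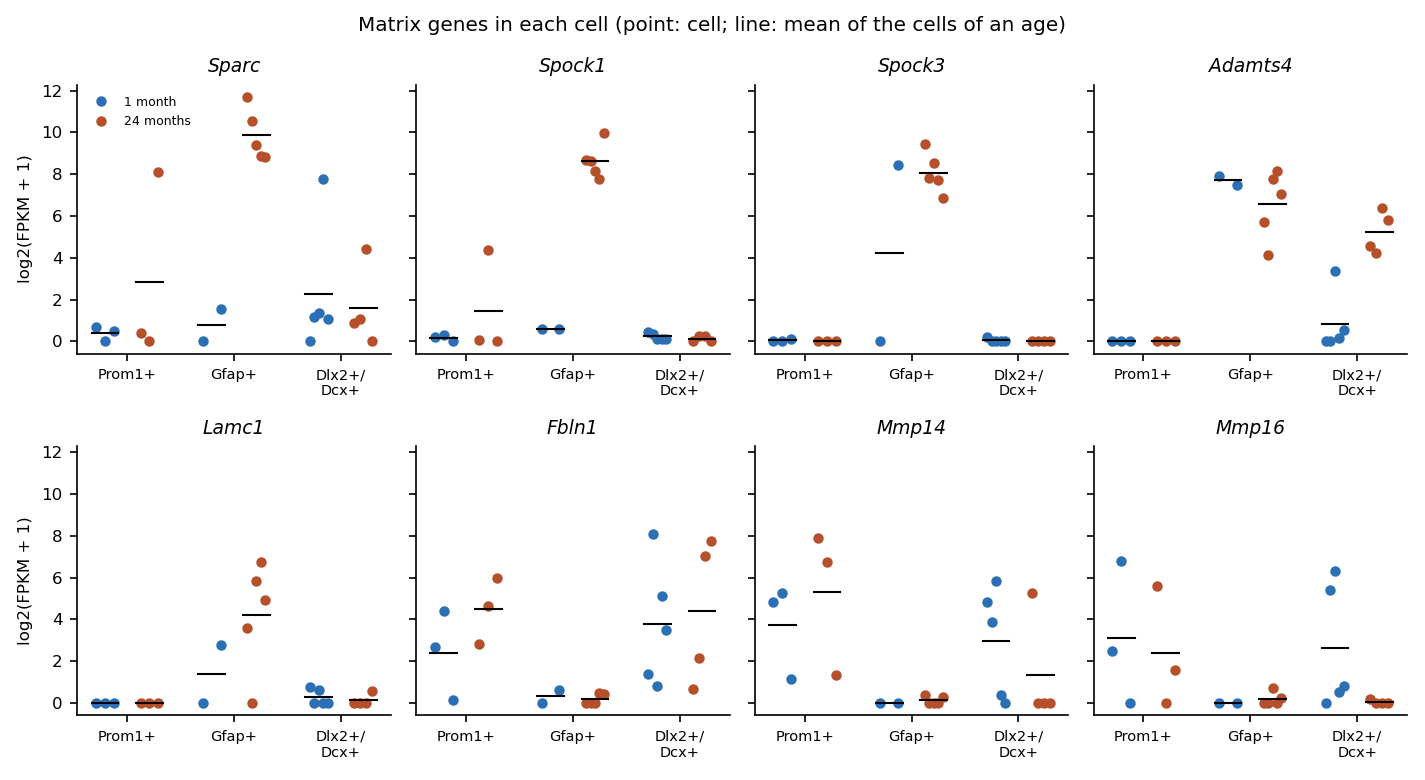
Each point is 1 cell, the y axis is log2(FPKM + 1), cells of 1 month and 24 months stand side by side within each subpopulation, and the line is the mean of the cells. Sparc and Spock1 are at or below 1.94 FPKM in the 1-month Gfap+ cells and at 219.9 FPKM or more in the 24-month ones, and Mmp14 and Mmp16 spread from 0 to over 100 FPKM across cells.

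Fbln1 and Mmp14 were above 1 FPKM in cells of both the Prom1+ and the Dlx2+/Dcx+ label. Fbln1 was at 5.33, 19.8 and 0.106 FPKM in 1-month and 5.99, 24.1 and 62.1 FPKM in 24-month Prom1+ cells. In Dlx2+/Dcx+ cells it was at 1.63, 271, 0.736, 33.5 and 10.4 FPKM at 1 month and at 0.572, 3.40, 128 and 215 FPKM at 24 months, while no Gfap+ cell exceeded 0.544 FPKM. Mmp14 was at 27.2, 37.6 and 1.19 FPKM in 1-month Prom1+ cells and at 235, 107.0 and 1.53 FPKM in 24-month ones. It was above 1 FPKM in all 6 of these cells, in 4 of 9 Dlx2+/Dcx+ cells, and it did not exceed 0.278 FPKM in Gfap+ cells. Mmp16, a further membrane-type MMP, was at 4.63, 111 and 0 FPKM and at 47.0, 0 and 1.95 FPKM in Prom1+ cells. In Dlx2+/Dcx+ cells it was at 40.7 and 79.2 FPKM in 2 of the 1-month cells and at most at 0.757 FPKM in the others. Mmp15, the tested gene with the largest log2 change in tissue, was above 1 FPKM in only 2 cells, at 21.4 FPKM in a 1-month Dlx2+/Dcx+ cell and 1.04 FPKM in a Gfap+ cell.

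Within Prom1+ cells, 2 SPARC family genes did not overlap between the ages by more than 1. Sparcl1 was at 37.5, 85.5 and 1.58 FPKM at 1 month and at 0.342, 0 and 0 FPKM at 24 months, a difference of -4.22 in mean log2(FPKM + 1). Spock2 was at 0.0295, 0.0506 and 0 FPKM at 1 month and at 5.28, 0.0520 and 6.95 FPKM at 24 months, a difference of 1.87. The separation was narrow in Spock2, where the lowest old cell was close to the highest young one. In Prom1+ cells 3.32% of all genes were higher in this way and 3.68% lower. Collagens were held by scattered cells. Col4a1 and Col4a2 were found together in only 1 cell, a 24-month Prom1+ cell at 3.88 and 23.8 FPKM, and Col4a1 alone was at 54.6 FPKM in a 24-month Dlx2+/Dcx+ cell. Col11a1 was at 37.6 and 81.6 FPKM in 2 of the 1-month Prom1+ cells, 2.94 FPKM in a 24-month one and 17.6 FPKM in a 1-month Dlx2+/Dcx+ cell. Col5a2 was at 133 FPKM in a 24-month Prom1+ cell, Col16a1 at 206 and 19.5 FPKM in 2 Gfap+ cells of 24 months, and Col9a3 at 83.5 FPKM in a 24-month Prom1+ cell. The inhibitors were as sparse, with Timp2 at 108 FPKM in 1 Gfap+ cell and Timp3 at 76.3 FPKM in 1 Dlx2+/Dcx+ cell and 37.0 FPKM in 1 Prom1+ cell.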

How the data were processed

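Per the labels and the paper's methods, the authors aligned reads to GRCm38 with HISAT2 and estimated expression with StringTie, and they deposited FPKM for 6 tissue samples and 22 cells, without stated scaling between libraries. featureCounts is named too. Versions, the annotation release and a separate protocol for the tissue are not given in the sources used here. The matrix genes and all lists were chosen with earlier results of these data known. All 111 identifiers were found in GENCODE for GRCm38. Positions in the cell table, of which 12.8% overlapped this annotation, were not used.

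For the tissue, limma 3.58.1 in R 4.3.3 was run on log2(FPKM + 1), with trend and Benjamini-Hochberg adjustment, over every gene that reached 1 FPKM in 3 or more samples. The limits on p (0.05) and on the log2 change (1) are those of the study's methods, which applied them to read counts with another tool. Tested on simulated data with normal spread, the fit recovered 94.4% of 200 genes changed by 2 (log2) among 12009 and called 0.931% of the unchanged ones. The changed genes were drawn from those with a mean log2(FPKM + 1) above 2. The recovery thus does not cover lower genes or smaller changes. Depth was estimated from FPKM steps of genes with 1 transcript of at least 300 bases. Of low values, 54.1% to 60.0% lay within 0.05 of a whole multiple, so no counts were recovered. The genes named by rule were those called, the 10 most abundant, trimer partners, TIMPs, and in cells those above 1 FPKM in the majority of a subpopulation or separated by age. Others were named after their values were seen. Promoter windows of RefSeq matched 80 of 111 symbols. The values of 1 gene of the rule are not reported here.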

Additional observations from a re-analysis of the deposited data

Results flagged for a closer look

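In groups of 4 to 10 cells, the highest or lowest cell was compared with the others for the matrix genes named in cells, and in 2 of 16 pairs of a gene and a group a cell lay far from the rest, both in the 1-month Dlx2+/Dcx+ cells. Chance alone gives about 1 in 20 such pairs where values are normally spread, which these values, mostly at or near 0, are not. Sparc was at 219.54 FPKM in replicate 4 of the 1-month Dlx2+/Dcx+ cells, while the other 4 cells were at 0 to 1.59 FPKM. Adamts4 was at 9.4628 FPKM in replicate 3 of the same group, while the others were at 0 to 0.475 FPKM.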

How the results depend on the processing

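The count of 3 matrix genes called in tissue was 3 without the filter on low values, with a filter on the mean, with quantile normalization, with median centring and without trend, and 2 with an adjusted p below 0.05 and the fold limit. It was 9 with a pseudocount of 0.1 (6 lower and 3 higher), 7 with TPM scaling (4 lower and 3 higher), 5 with an adjusted p and no fold limit, and 14 with no filter and a pseudocount of 0.1 (8 lower and 6 higher), a setting chosen after seeing the data. The gains at 0.1 and with TPM scaling follow from the smaller weight of the pseudocount or the larger number of genes tested. The count over all genes, 479 (254 lower and 225 higher), was 765, 891 (370 lower and 521 higher), 605, 1392 and 279 under pseudocount 0.1, TPM scaling, adjusted p alone, no filter with pseudocount 0.1, and adjusted p with the fold limit. For related lists the count of 7 was 11 with a pseudocount of 0.1, 11 with no filter as well and 12 by adjusted p alone. The replicate numbers do not pair the samples, since correlations of same-numbered deviations were -0.0963, -0.0107 and -0.098, and with the replicate block 3 matrix genes and 505 of all genes were called. Without 1 sample in turn the counts were 2 to 4, 409 to 567 and 6 to 8.

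In tissue, other settings changed the sign of Adamts3 (-0.0021 with quantile normalization), Col16a1 (0.011 with TPM scaling), Lamb2 (0.0194 with TPM scaling), Col6a4 (-0.0605 with quantile normalization and -0.0468 with median centring) and Mmp16 (-0.0419 and -0.002). Leaving out samples gave ranges across 0 for Adamts3 (-0.0436 to 0.2267), Col16a1 (-0.1157 to 0.0648), Col6a4 (-0.129 to 0.1453), Col9a2 (-0.0118 to 0.1953), Lama5 (-0.0385 to 0.389), Lamb2 (-0.068 to 0.0725), Mmp16 (-0.0264 to 0.1307) and Timp4 (-0.4066 to 0.3171). Col9a3 was called without replicate 3 at 3 weeks (-1.08), Mmp24 without replicate 1 at 18 months (-1.26) and Spock2 without replicate 1 at 3 weeks (1.51).

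In cells, the 3 genes in the majority of Prom1+ cells became 6 above 0.1 FPKM and 4 to 6 without 1 cell in turn. The 5 in Dlx2+/Dcx+ cells became 2 above 5 FPKM, 8 above 0.1 FPKM and 3 to 5 without 1 cell, whereas the 6 in Gfap+ cells were 5 above 5 FPKM, 8 above 0.1 FPKM, 6 with TPM scaling and 6 without 1 cell in turn. Leaving out 1 Prom1+ cell lowers the number of cells that makes a majority, so that count could not fall. In the other subpopulations this number stays the same, so their counts could not rise. With a pseudocount of 0.1 the age differences were 11.0 for Sparc and 9.37 for Spock1 in Gfap+ cells, 6.50 for Adamts4 in Dlx2+/Dcx+ cells, and -6.74 for Sparcl1 and 3.84 for Spock2 in Prom1+ cells. Leaving out 1 cell in turn gave age differences across 0 for Spock3 (-0.3723 to 8.0753) and Mmp12 (-1.083 to 0.1665) in Gfap+ cells, Mmp16 (-2.3201 to 1.134) in Prom1+ cells, and Adamts10 (-1.4711 to 0.6912), Fbln1 (-0.512 to 1.8564) and Sparc (-1.6352 to 0.6853) in Dlx2+/Dcx+ cells. The size of an age difference in cells with values at 0 therefore depends on the pseudocount. Values below about 1 FPKM rest on few fragments, and the depth of the cells was not used here.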
